A study of Mus musculus with 12 samples.

Results

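Atf4 is the transcription factor at the centre of the amino acid response, and the genes described here are 41 genes of that response: Atf4 with its partners and feedback genes, enzymes of serine, folate and other amino acid synthesis, amino acid transporters, and cytosolic aminoacyl-tRNA synthetases. Members were taken as named genes and matched to array probe sets that carry a single gene symbol, and where a gene had more than 1 such probe set, the brightest was kept. This gave values for 39 of the 41 members, out of 19937 genes with a single-symbol probe set among 34760 probe sets in all. Pycr1 and Aars were not analysed here: no single-symbol probe set was listed for either, and Aars sat only on a probe set shared by several symbols. Iars was the only member with more than 1 probe set. The probe set kept had a mean log2 value of 11.89 and the other 11.74, and the other is not reported alone. Whether both lie at the same place in the genome was not checked. Mars is annotated as Mars1. By role, the measured members are 13 regulators and feedback genes, 5 enzymes of serine and mitochondrial folate metabolism, 4 enzymes of other amino acid synthesis, 7 transporters and 10 synthetases.

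The cells are 4T1, a mouse mammary epithelial carcinoma line of BALB/cfC3H background, in 4 stably modified versions. Besides the control there are the lines FL, mutB1 and ΔSAP, each named for a construct of Mkl1 (now Mrtfa), which actin holds back and which coactivates serum response factor. By their names the constructs are full-length Mkl1, Mkl1 altered in the B1 region through which it is known to bind serum response factor, and Mkl1 without its SAP domain, but the labels do not spell this out. Each construct is represented by 1 line, so line and construct cannot be told apart, and nothing states what the control line carries. All lines were kept for 48 h in medium with 0.03% serum before RNA was taken, and each was hybridised to 3 arrays of the Affymetrix Mouse Gene 1.0 ST type, whose values are log2 intensities after RMA. The labels call the 3 arrays triplicates without saying whether cultures were separate, so p-values measure the spread between these arrays, which may be technical.

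When amino acids run short, uncharged tRNA activates the kinase Gcn2, and when proteins misfold in the endoplasmic reticulum the kinase Perk is activated. Both phosphorylate the translation factor eIF2α, which lowers general protein synthesis but raises translation of Atf4 mRNA. Atf4 protein then pairs with C/EBP family members on composite elements and raises transcription of genes that make, import and charge amino acids, while feedback genes such as Trib3 and Chac1 are induced alongside. Because Atf4 is controlled largely through translation, its mRNA is only a partial readout of its activity.

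Array medians lay between 6.35 and 6.45, and arrays of 1 line correlated at 0.995 to 0.997 over all probe sets, against 0.988 to 0.995 between lines. Mkl1 RNA read 9.28, 9.28 and 9.26 on the control arrays, 12.06, 12.14 and 12.03 in FL, 11.41, 11.23 and 11.22 in mutB1 and 11.94, 11.87 and 11.95 in ΔSAP, so every construct line was above control and mutB1 was the lowest of the 3. Where its probes lie relative to the altered regions was not checked. Krt8 and Krt18, keratins of simple epithelium, were bright in every line (line means 12.55 to 13.20). The summed log2 value of 8 epithelial markers was 69.3 to 70.0 on the mutB1 arrays against 77.5 to 78.1 in control, 78.4 to 78.9 in FL and 82.4 to 82.5 in ΔSAP, and 7 of the 8 differed among lines. Over 5 fibroblast markers the sum was 40.3 to 40.6 in mutB1, 37.6 to 38.1 in control, 37.1 to 37.8 in FL and 36.9 to 37.5 in ΔSAP, and 3 of the 5 differed. Of the 5, only 1 was called higher in mutB1 than in control, and the log2 differences ranged from -0.098 to 2.61 (median 0.016). In bulk RNA, fewer cells of a type and less RNA per cell cannot be told apart. Of 4 leukocyte markers, Ptprc and Itgam were below the lowest array median in every line, Cd3e lay near it (means 6.32 to 6.51), and Cd68, a macrophage-lineage marker, was well above it and differed among lines, with means of 8.91 ± 0.16 (control), 9.58 ± 0.042 (FL), 8.53 ± 0.20 (mutB1) and 9.33 ± 0.053 (ΔSAP). The summed leukocyte value was 24.6 to 25.2 in control, 25.3 to 25.6 in FL, 24.2 to 24.7 in mutB1 and 24.8 to 25.3 in ΔSAP. All 3 endothelial markers were below the lowest array median in every line. The part of these marker differences, and of the lower Mkl1 level in mutB1, in the results below was not tested.

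Most amino acid response genes were higher in FL than in the other lines, and most were lowest in control. FL held the highest line mean for 32 of the 39 members, and control the lowest for 31. The remaining highest means were in mutB1 for 6 members and in ΔSAP for 1. The members were chosen with earlier results of these data known, so the shares below describe this list and are not an independent test. A member counts as higher or lower where the limma adjusted p was at most 0.01 with a mean log2 value of at least 4, which all 39 members passed. By this rule 34 members were higher and 2 lower in FL than in control, where 11% of all probe sets passing the mean filter were higher and 11.9% lower. In FL against mutB1, 29 were higher and 2 lower (background 10.1% and 10.2%), and in FL against ΔSAP, 29 were higher and 1 lower (background 6.56% and 6.54%). Both altered lines were also above control: 26 members were higher and 1 lower in mutB1 (background 6.65% and 7.89%), and 27 were higher and 1 lower in ΔSAP (background 7.94% and 8.96%). Members are mostly bright genes, which are called more often: 37 of the 39 had a mean of at least 8, and among single-symbol probe sets that bright, 22.7% were higher in FL than in control, 20.4% than in mutB1 and 15.1% than in ΔSAP, and 15.1% and 16.3% were higher than control in mutB1 and ΔSAP.

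The differences were moderate in size. The median log2 difference over the 39 members was 0.66 for FL minus control (range -0.32 to 1.80), 0.36 for FL minus mutB1 (-0.44 to 1.56) and 0.32 for FL minus ΔSAP (-0.29 to 1.15). Over all probe sets tested the same medians were -0.010, -0.0017 and 0.029. The median was 0.35 for mutB1 minus control and 0.40 for ΔSAP minus control, so on the log2 scale the altered lines stood between control and FL. At least 2-fold differences were fewer: 9 members in FL against control, 3 against mutB1 (Ddit3, Stc2 and Gpt2) and 1 against ΔSAP (Ddit3), where 1.39%, 1.12% and 0.248% of all probe sets were higher by that much. The limma F test over the 4 lines called 36 of the 39 members (background 31.6%, and 67.9% of bright single-symbol probe sets); the exceptions were Vldlr, Slc7a11 and Slc38a2. These comparisons share arrays, so they are given side by side and not as separate support for each other.

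**Figure D1:**
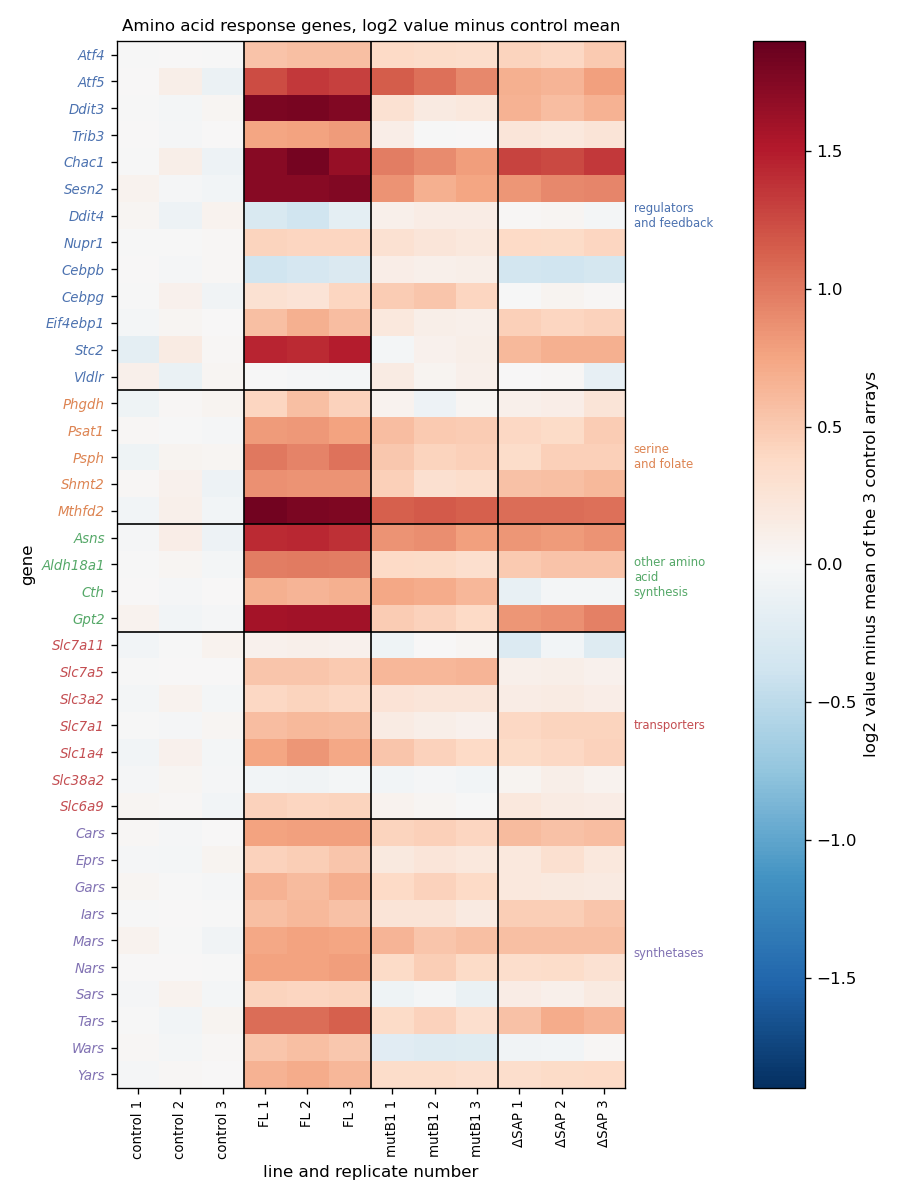
Log2 value of each of the 39 measured members (one per line of the map, grouped and coloured by role) on each of the 12 arrays, minus the mean of the 3 control arrays. FL columns are red for most genes, the mutB1 and ΔSAP columns are paler, and Ddit4 and Cebpb are blue in FL.

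A shared element was looked for in the promoters, because Atf4 with a C/EBP partner is known to bind composite elements that read TGATGNAA. RefSeq windows (build GRCm38.p6) from 250 bases before to 50 bases after each gene's start were found for 35 of the 41 members and were searched on both strands; Eif4ebp1, Cth, Slc7a5, Cars, Nars and Wars had no window. TGATGNAA was in the window of 13 of the 35 members (37.1%), against 1219 of 27025 genes with a window (4.51%). The stricter TGATGCAA, every match of which is also a TGATGNAA match, was in 10 of the 35 (28.6%) against 1.03% of genes. Many members became known as Atf4 genes through such elements, so this share describes the list and is not an independent result. By role, TGATGNAA was in 5 of 8 synthetase windows, 2 of 4 of other amino acid synthesis, 4 of 12 of regulators and 2 of 6 of transporters. None of the 5 serine and folate windows held it.

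The stretches below are shown because they place the element in genes whose RNA is described later, and each reads 5′ to 3′ along the gene with the match in capitals and 10 bases on either side. A match that reads TTGCATCA or TTTCATCA is the same element on the opposite strand. Asns makes asparagine, Nupr1 is a stress-induced nuclear protein, Slc1a4 carries alanine and serine, and Gars, Iars, Tars and Yars charge tRNA with glycine, isoleucine, threonine and tyrosine.
Asns (chr6:7693215-7693242, minus strand): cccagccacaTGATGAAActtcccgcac
Nupr1 (chr7:126625563-126625590, minus strand): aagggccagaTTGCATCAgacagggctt
Slc1a4 (chr11:20332700-20332727, minus strand): gcctcctgcgTTGCATCAtctccagcct
Gars (chr6:55037961-55037988, plus strand): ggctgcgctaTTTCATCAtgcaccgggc
Iars (chr13:49682127-49682154, plus strand): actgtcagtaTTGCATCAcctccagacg
Tars (chr15:11399656-11399683, minus strand): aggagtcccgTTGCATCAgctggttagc
Yars (chr4:129189896-129189923, plus strand): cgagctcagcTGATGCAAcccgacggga

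For Chac1 and Slc7a11 the 250 bases before the gene start are shown whole, because the genes contrast: both hold the element, and Chac1 RNA differed by 3.32-fold between FL and control whereas Slc7a11 RNA did not pass the test. Chac1 has 1 match, and Slc7a11 has 2, which lie on opposite strands.
Chac1 (chr2:119350992-119351241, plus strand): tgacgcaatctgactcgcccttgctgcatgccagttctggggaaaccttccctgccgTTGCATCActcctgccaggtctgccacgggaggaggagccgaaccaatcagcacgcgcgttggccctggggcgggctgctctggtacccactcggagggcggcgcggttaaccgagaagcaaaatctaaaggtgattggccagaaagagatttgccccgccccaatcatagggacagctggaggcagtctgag
Slc7a11 (chr3:50443614-50443863, minus strand): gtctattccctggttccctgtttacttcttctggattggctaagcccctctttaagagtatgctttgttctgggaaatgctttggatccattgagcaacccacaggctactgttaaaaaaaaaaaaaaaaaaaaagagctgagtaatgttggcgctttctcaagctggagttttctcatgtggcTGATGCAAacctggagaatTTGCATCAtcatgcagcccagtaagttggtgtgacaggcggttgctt

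The differences between FL and control were of like size with and without the element. Of the 33 measured members with a window, the 11 with TGATGNAA had a median log2 difference of 0.66, and 9 of them were higher in FL. The 22 without it had a median of 0.68, and 19 were higher. In the other comparisons of FL the medians differed more, and not in one direction. With and without the element they were 0.33 and 0.43 for FL minus mutB1, and 0.37 and 0.29 for FL minus ΔSAP. No match says only that these letters are not in this window, and no test was made.

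Among the regulators, Atf4 RNA itself was modestly higher in FL. It read 9.48, 9.50 and 9.49 on the control arrays, 10.04, 10.06 and 10.06 on those of FL, 9.87, 9.85 and 9.83 on those of mutB1 and 9.91, 9.88 and 9.98 on those of ΔSAP. The arrays of FL were above all others, those of control below all others, and the altered lines lay between. FL was higher than control by 0.56 ± 0.035 (SE; limma adjusted p = 9.12e-07), a 1.47-fold difference, and higher than mutB1 by 0.20 ± 0.035 (adjusted p = 0.00139). Against ΔSAP the difference of 0.12 (95% interval 0.046 to 0.20) did not pass (adjusted p = 0.0332). The call against mutB1 ended after median centring of the arrays (adjusted p = 0.026) and in a fit of the arrays of those lines alone (0.0116).

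Ddit3 (Chop), a transcription factor that Atf4 induces under sustained stress, showed the widest gap between FL and the altered lines. Its log2 value was 8.35, 8.33 and 8.40 on the control arrays, 10.15, 10.16 and 10.11 on those of FL, 8.65, 8.53 and 8.57 on those of mutB1 and 9.02, 8.95 and 9.01 on those of ΔSAP. Every FL array was above every other array, and the lines did not overlap. Its excess in FL over mutB1 was 1.56 ± 0.042 (2.95-fold, limma adjusted p = 3e-09), over ΔSAP 1.15 ± 0.042 (adjusted p = 1.2e-07, 2.22-fold) and over control 1.78 ± 0.042 (3.44-fold). ΔSAP exceeded control by 0.63 ± 0.042 (adjusted p = 2.2e-06) and mutB1 did by 0.22 ± 0.042 (adjusted p = 0.00335). The call of mutB1 against control ended when any of 4 of the 6 arrays was left out (adjusted p up to 0.016, without control replicate 2) and in a fit of the arrays of those lines alone (0.0314).

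Sesn2 and Chac1 were graded in the same order, with FL above both altered lines and both above control. Sesn2, a leucine-sensing inhibitor of mTORC1, read 8.02, 7.92 and 7.90 on the control arrays, 9.67, 9.68 and 9.70 on those of FL, 8.80, 8.62 and 8.69 on those of mutB1 and 8.78, 8.87 and 8.87 on those of ΔSAP. FL was 3.33-fold above control (log2 difference 1.74 ± 0.053, limma adjusted p = 5.97e-09), 0.98 ± 0.053 above mutB1 and 0.84 ± 0.053 above ΔSAP. Chac1 degrades glutathione and is induced through Atf4. Its arrays read 9.49, 9.62 and 9.40 on the control arrays, 11.22, 11.31 and 11.16 on those of FL, 10.48, 10.40 and 10.30 on those of mutB1 and 10.79, 10.76 and 10.84 on those of ΔSAP, with no overlap between lines. Here ΔSAP was the nearer to FL: the log2 difference of FL was 0.44 ± 0.067 from ΔSAP (adjusted p = 0.00119) and 0.84 ± 0.067 from mutB1 (adjusted p = 7.16e-06).

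Stc2, a secreted glycoprotein induced by endoplasmic reticulum stress, separated FL and ΔSAP from the other lines. It read 6.55, 6.90 and 6.77 on the control arrays, 8.19, 8.16 and 8.23 on those of FL, 6.71, 6.82 and 6.85 on those of mutB1 and 7.36, 7.42 and 7.42 on those of ΔSAP. The control and mutB1 arrays overlapped near the array median, while the FL and ΔSAP arrays stood above them. The level in FL was above mutB1 by 1.40 ± 0.077 (2.64-fold, limma adjusted p = 4.69e-07) and above ΔSAP by 0.80 ± 0.077 (adjusted p = 6.37e-05). Trib3, a pseudokinase that restrains Atf4, had a similar order, with means of 9.61 ± 0.02 (control), 10.37 ± 0.03 (FL), 9.65 ± 0.072 (mutB1) and 9.83 ± 0.024 (ΔSAP, SD, n = 3). FL was higher than mutB1 by 0.72 ± 0.042 (adjusted p = 6.94e-07) and than ΔSAP by 0.54 ± 0.042 (adjusted p = 1.53e-05), and ΔSAP was higher than control by 0.23 ± 0.042 (adjusted p = 0.00265). That last call ended when any of 4 of the 6 arrays was left out (adjusted p up to 0.0127, without ΔSAP replicate 3), after median centring (0.0155) and in a fit of the arrays of those lines alone (0.0123).

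Atf5 and Eif4ebp1 were also higher in FL than in control. Atf5, a relative of Atf4 that is likewise controlled by translation, had means of 7.99 ± 0.11 (control), 9.28 ± 0.047 (FL), 9.03 ± 0.12 (mutB1) and 8.69 ± 0.065 (ΔSAP). It was 2.45-fold higher in FL than in control (limma adjusted p = 3.49e-07), and its difference between FL and mutB1 did not pass (0.26 ± 0.07, adjusted p = 0.0219), whereas FL was above ΔSAP by 0.59 ± 0.07 (adjusted p = 0.000243). Eif4ebp1, the translation inhibitor 4E-BP1, was higher in FL than in control by 0.61 ± 0.042 and than in mutB1 by 0.48 ± 0.042. Nupr1 was higher in FL than in control by 0.42 ± 0.034 and differed from ΔSAP by 0.031 (95% interval -0.045 to 0.11, adjusted p = 0.644). Its rise over mutB1 (0.18 ± 0.034, adjusted p = 0.00247) was not called without any 1 of 4 arrays (adjusted p up to 0.013, without mutB1 replicate 3) or after median centring (0.0643).

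Cebpb and Ddit4 were the members that were lower in FL. Cebpb, the C/EBP protein that partners Atf4 and also answers to inflammatory signals, had means of 10.36 ± 0.023 (control), 10.04 ± 0.054 (FL), 10.48 ± 0.021 (mutB1) and 10.02 ± 0.023 (ΔSAP). FL was lower than mutB1, with a log2 difference of -0.44 ± 0.037 (limma adjusted p = 1.13e-05), and lower than control, at -0.32 ± 0.037 (adjusted p = 7.45e-05). ΔSAP was also lower than control (-0.35 ± 0.037, adjusted p = 7.16e-05). Ddit4 (Redd1), an mTORC1 inhibitor induced by hypoxia, glucocorticoids and Atf4, had means of 11.26 ± 0.084, 10.98 ± 0.094, 11.39 ± 0.026 and 11.27 ± 0.037 in the same order of lines. Its log2 difference was -0.41 ± 0.056 for FL minus mutB1 (adjusted p = 0.000308), -0.29 ± 0.056 for FL minus ΔSAP (adjusted p = 0.00457) and -0.29 ± 0.056 for FL minus control (adjusted p = 0.00294). The Ddit4 call against ΔSAP ended without any 1 of 5 arrays (adjusted p up to 0.0204, without ΔSAP replicate 2), and the call against control without any 1 of 4 (up to 0.0148, without control replicate 3). Vldlr, a lipoprotein receptor reported as an Atf4 gene, was low in every line (means 5.04 to 5.18), so a difference could not be seen there.

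**Figure D2:**
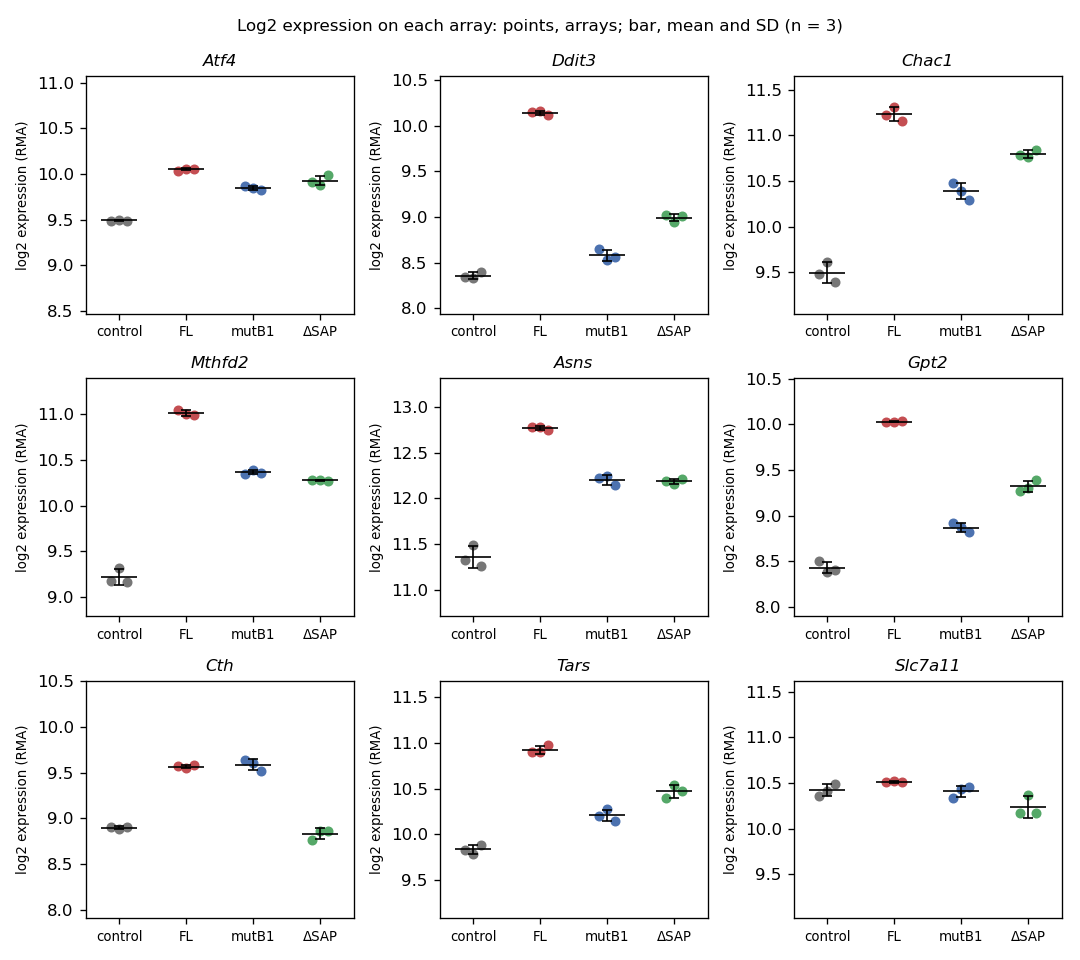
Log2 expression (RMA) of 9 members on each array; points are arrays, and bars are the mean and SD of 3 arrays per line, on axes of equal span that do not start at 0. Ddit3, Chac1, Mthfd2, Asns, Gpt2 and Tars stand highest in FL, Cth is high in FL and mutB1, and Slc7a11 differs little.

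All 5 serine and folate enzymes were higher in FL than in each other line, with median log2 differences of 0.86 from control, 0.49 from mutB1 and 0.38 from ΔSAP. Among bright single-symbol probe sets, 22.7%, 20.4% and 15.1% were higher in these comparisons. Mthfd2, the mitochondrial enzyme that oxidises methylene-tetrahydrofolate, had the largest difference between FL and control of all members. It read 9.17, 9.32 and 9.17 on the control arrays, 11.05, 11.01 and 10.99 on those of FL, 10.35, 10.39 and 10.36 on those of mutB1 and 10.28, 10.28 and 10.27 on those of ΔSAP. FL was 3.48-fold above control (log2 difference 1.80 ± 0.045, limma adjusted p = 1.64e-09), 0.65 ± 0.045 above mutB1 (adjusted p = 2.38e-06) and 0.74 ± 0.045 above ΔSAP (adjusted p = 3.46e-06). The altered lines were themselves 2.22-fold (mutB1) and 2.08-fold (ΔSAP) above control.

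Psph, Shmt2 and Psat1 were also highest in FL and lowest in control. Psph, which releases serine in the last step of its synthesis, read 9.38, 9.52 and 9.50 on the control arrays, 10.47, 10.41 and 10.50 on those of FL, 9.98, 9.89 and 9.92 on those of mutB1 and 9.81, 9.92 and 9.92 on those of ΔSAP. FL exceeded control by 0.99 ± 0.051, mutB1 by 0.53 ± 0.051 and ΔSAP by 0.57 ± 0.051. Shmt2, which passes the carbon of serine to mitochondrial folate, read 11.54, 11.60 and 11.43 on the control arrays, 12.39, 12.37 and 12.38 on those of FL, 11.98, 11.83 and 11.85 on those of mutB1 and 12.08, 12.10 and 12.14 on those of ΔSAP. Its log2 difference between FL and ΔSAP, 0.27 ± 0.054 (limma adjusted p = 0.00488), was not called when any 1 of the 6 arrays was left out (adjusted p up to 0.021, without FL replicate 1), and its difference between FL and mutB1 was 0.49 ± 0.054 (adjusted p = 6.76e-05). Psat1, the aminotransferase of the serine pathway, read 11.44, 11.42 and 11.40 on the control arrays, 12.23, 12.24 and 12.18 on those of FL, 12.003, 11.92 and 11.90 on those of mutB1 and 11.81, 11.79 and 11.91 on those of ΔSAP. FL exceeded mutB1 by 0.27 ± 0.044 and ΔSAP by 0.38 ± 0.044.

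Phgdh, the first enzyme of serine synthesis, differed from its 4 companions in the altered lines. Its means were 9.82 ± 0.069 (control), 10.29 ± 0.084 (FL), 9.82 ± 0.08 (mutB1) and 9.97 ± 0.078 (ΔSAP). FL was higher than control by 0.47 ± 0.064 (limma adjusted p = 0.000239) and than mutB1 by 0.47 ± 0.064 (adjusted p = 0.000296), while neither altered line was called against control. The other 4 were called higher than control in both altered lines. The Phgdh call against ΔSAP (0.32 ± 0.064, adjusted p = 0.0055) ended without any 1 of 5 arrays (up to 0.0244, without FL replicate 2).

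In other amino acid synthesis, all 4 measured enzymes were higher in FL than in control (median log2 difference 1.20) and than in ΔSAP (0.64), and 3 of the 4 were higher than in mutB1. Among bright single-symbol probe sets, 22.7% were higher than in control, 15.1% than in ΔSAP and 20.4% than in mutB1. Asns, asparagine synthetase, read 11.33, 11.49 and 11.26 on the control arrays, 12.78, 12.78 and 12.75 on those of FL, 12.22, 12.24 and 12.14 on those of mutB1 and 12.19, 12.16 and 12.21 on those of ΔSAP. The mutB1 and ΔSAP arrays overlapped, and FL stood above both. FL exceeded control by 1.41 ± 0.056 (2.66-fold, limma adjusted p = 3.57e-08), mutB1 by 0.57 ± 0.056 (adjusted p = 3.36e-05) and ΔSAP by 0.58 ± 0.056 (adjusted p = 6.5e-05). Gpt2, the mitochondrial alanine aminotransferase, read 8.50, 8.38 and 8.41 on the control arrays, 10.02, 10.03 and 10.03 on those of FL, 8.91, 8.87 and 8.82 on those of mutB1 and 9.27, 9.30 and 9.39 on those of ΔSAP, with no overlap between any lines. FL was 3.02-fold above control and 2.23-fold above mutB1 (log2 difference 1.16 ± 0.046, adjusted p = 4.52e-08). Aldh18a1, which commits glutamate to proline and ornithine, read 10.53, 10.57 and 10.51 on the control arrays, 11.51, 11.53 and 11.52 on those of FL, 10.92, 10.90 and 10.86 on those of mutB1 and 11.03, 11.08 and 11.07 on those of ΔSAP. FL exceeded mutB1 by 0.62 ± 0.034 and ΔSAP by 0.46 ± 0.034.

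Cth was the exception in this group. Cystathionine gamma-lyase, which makes cysteine, read 8.91, 8.88 and 8.90 on the control arrays, 9.57, 9.55 and 9.58 on those of FL, 9.64, 9.60 and 9.52 on those of mutB1 and 8.76, 8.86 and 8.87 on those of ΔSAP. FL and mutB1 overlapped at the higher level, and ΔSAP and control lay together at the lower one. FL was higher than ΔSAP by 0.74 ± 0.042 (limma adjusted p = 2.58e-06) and than control by 0.67 ± 0.042 (adjusted p = 9.68e-07), and mutB1 was higher than control by 0.69 ± 0.042 (adjusted p = 1.2e-06). The difference between FL and mutB1 was -0.021 (95% interval -0.11 to 0.072, adjusted p = 0.783).

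Of 7 transporters, 5 were higher in FL than in control and than in ΔSAP, and 4 were higher than in mutB1. None was lower in these comparisons. The shares higher than in control, mutB1 and ΔSAP were 71.4%, 57.1% and 71.4%. Among bright single-symbol probe sets they were 22.7%, 20.4% and 15.1%. Slc1a4 read 9.52, 9.65 and 9.53 on the control arrays, 10.31, 10.40 and 10.30 on those of FL, 10.10, 10.02 and 9.95 on those of mutB1 and 9.93, 9.96 and 10.01 on those of ΔSAP. FL exceeded control by 0.77 ± 0.053 (limma adjusted p = 1.77e-06), mutB1 by 0.32 ± 0.053 and ΔSAP by 0.37 ± 0.053. Slc7a1, the transporter of arginine and lysine, read 10.56, 10.54 and 10.60 on the control arrays, 11.16, 11.19 and 11.18 on those of FL, 10.72, 10.68 and 10.66 on those of mutB1 and 10.97, 10.997 and 10.99 on those of ΔSAP. No lines overlapped, and FL was higher than mutB1 by 0.49 ± 0.033 (adjusted p = 2.26e-06). The smaller Slc7a1 difference of FL from ΔSAP (0.19 ± 0.033, adjusted p = 0.00257) was not called without any 1 of 3 arrays (up to 0.0129, without FL replicate 2) or after median centring (0.0694).

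Slc6a9, a glycine transporter, read 11.86, 11.84 and 11.77 on the control arrays, 12.27, 12.24 and 12.24 on those of FL, 11.89, 11.86 and 11.82 on those of mutB1 and 12.03, 11.97 and 11.97 on those of ΔSAP. In FL it was above mutB1 by 0.39 ± 0.037 and above ΔSAP by 0.26 ± 0.037. Slc7a5 (Lat1) and Slc3a2 (4F2hc) form the heterodimer that exchanges leucine and other large neutral amino acids for glutamine. Slc7a5 read 11.77, 11.79 and 11.79 on the control arrays, 12.30, 12.31 and 12.28 on those of FL, 12.41, 12.42 and 12.43 on those of mutB1 and 11.88, 11.89 and 11.86 on those of ΔSAP. It was highest in mutB1, with FL just below it, a log2 difference of -0.12 (95% interval -0.19 to -0.057) that narrowly missed the threshold (limma adjusted p = 0.0108). FL was higher than ΔSAP by 0.42 ± 0.03 (adjusted p = 8.93e-06), and mutB1 was higher than control by 0.64 ± 0.03 (adjusted p = 1.45e-07).

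Its partner Slc3a2 differed less. The means were 12.44 ± 0.056 (control), 12.84 ± 0.012 (FL), 12.68 ± 0.015 (mutB1) and 12.58 ± 0.017 (ΔSAP). In FL it was above control by 0.40 ± 0.036 (limma adjusted p = 1.24e-05) and above ΔSAP by 0.26 ± 0.036. The call against mutB1 (0.16 ± 0.036, adjusted p = 0.0071) ended when any 1 of the 6 arrays was left out (up to 0.0282, without FL replicate 2).

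Slc7a11 and Slc38a2 were the transporters that did not pass the F test. Slc7a11 (xCT), the cystine importer, read 10.36, 10.41 and 10.49 on the control arrays, 10.51, 10.52 and 10.51 on those of FL, 10.34, 10.43 and 10.45 on those of mutB1 and 10.17, 10.37 and 10.17 on those of ΔSAP. Its log2 difference was 0.09 for FL minus control (95% interval -0.046 to 0.23, limma adjusted p = 0.355) and 0.27 for FL minus ΔSAP (95% interval 0.14 to 0.41, adjusted p = 0.0102). The first interval does not reach the differences of the other 5 transporters. Slc38a2 (Snat2), a sodium-coupled importer of small neutral amino acids, had means of 12.89 ± 0.036, 12.83 ± 0.017, 12.85 ± 0.018 and 12.96 ± 0.03 in control, FL, mutB1 and ΔSAP. FL minus control was -0.054 (95% interval -0.13 to 0.021, adjusted p = 0.31).

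All 10 measured synthetases, the enzymes that charge tRNA with amino acids, were higher in FL than in control, and FL held the highest mean of each. The median log2 difference was 0.66 from control, 0.35 from mutB1 (9 of 10 called higher) and 0.29 from ΔSAP (8 of 10). The shares higher, 100%, 90% and 80%, compare with 22.7%, 20.4% and 15.1% of bright single-symbol probe sets. Tars, the threonyl enzyme, read 9.83, 9.79 and 9.89 on the control arrays, 10.90, 10.90 and 10.98 on those of FL, 10.20, 10.27 and 10.15 on those of mutB1 and 10.40, 10.54 and 10.48 on those of ΔSAP. FL was 2.13-fold above control (log2 difference 1.09 ± 0.05, limma adjusted p = 1.05e-07), 0.72 ± 0.05 above mutB1 (adjusted p = 2.81e-06) and 0.45 ± 0.05 above ΔSAP (adjusted p = 0.000159). Among the 10 members it was the only synthetase past 2-fold in any of the 6 comparisons. Cars, the cysteinyl enzyme, read 10, 9.96 and 9.98 on the control arrays, 10.75, 10.76 and 10.76 on those of FL, 10.40, 10.43 and 10.39 on those of mutB1 and 10.58, 10.54 and 10.57 on those of ΔSAP, and its lines did not overlap. Nars, the asparaginyl enzyme, read 11.58, 11.59 and 11.57 on the control arrays, 12.34, 12.34 and 12.37 on those of FL, 11.94, 12.04 and 11.94 on those of mutB1 and 11.92, 11.93 and 11.87 on those of ΔSAP.

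Wars, the tryptophanyl enzyme, which interferon gamma is also known to induce, had an order of its own. It read 11.25, 11.20 and 11.25 on the control arrays, 11.77, 11.80 and 11.74 on those of FL, 11.02, 10.98 and 11.01 on those of mutB1 and 11.17, 11.18 and 11.25 on those of ΔSAP. FL was the only line called above control, and mutB1 was lower than control (-0.23 ± 0.037, limma adjusted p = 0.00117), a call that ended in a fit of the arrays of those lines alone (0.0124). FL exceeded mutB1 by 0.77 ± 0.037 (adjusted p = 1.83e-07), the widest gap between these lines among the synthetases. Sars, the seryl enzyme, was likewise called above control in FL alone (0.42 ± 0.04, adjusted p = 2.24e-05), with means of 11.72 ± 0.053 (control), 12.14 ± 0.0092 (FL), 11.64 ± 0.046 (mutB1) and 11.86 ± 0.036 (ΔSAP).

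The remaining 5 synthetases had log2 differences between FL and control of 0.48 (Eprs, glutamyl-prolyl), 0.58 (Iars), 0.65 (Gars), 0.66 (Yars) and 0.75 (Mars, methionyl). All 5 were also called higher than control in both altered lines, but not all of these calls held. Eprs in mutB1 (adjusted p = 0.00711) was lost without any 1 of 5 arrays (up to 0.0302, without control replicate 1), after median centring (0.0507) and with the replicate number as a block (0.0136), and Eprs in ΔSAP (0.00256) without any 1 of 3 (up to 0.0132, without control replicate 1). Gars in ΔSAP (0.00415) was lost without any 1 of 5 (up to 0.02, without control replicate 3), after median centring (0.0206) and with the block (0.0136). The difference of FL from the altered lines did not pass for Mars (0.17 from mutB1, adjusted p = 0.0142, and 0.18 from ΔSAP, adjusted p = 0.0136), nor did that of Iars from ΔSAP (0.094, 95% interval 0.012 to 0.18, limma adjusted p = 0.119). The Eprs call against ΔSAP (0.25) ended without any 1 of 3 arrays (adjusted p up to 0.0122, without ΔSAP replicate 3) and after median centring (0.0419).

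**Figure D3:**
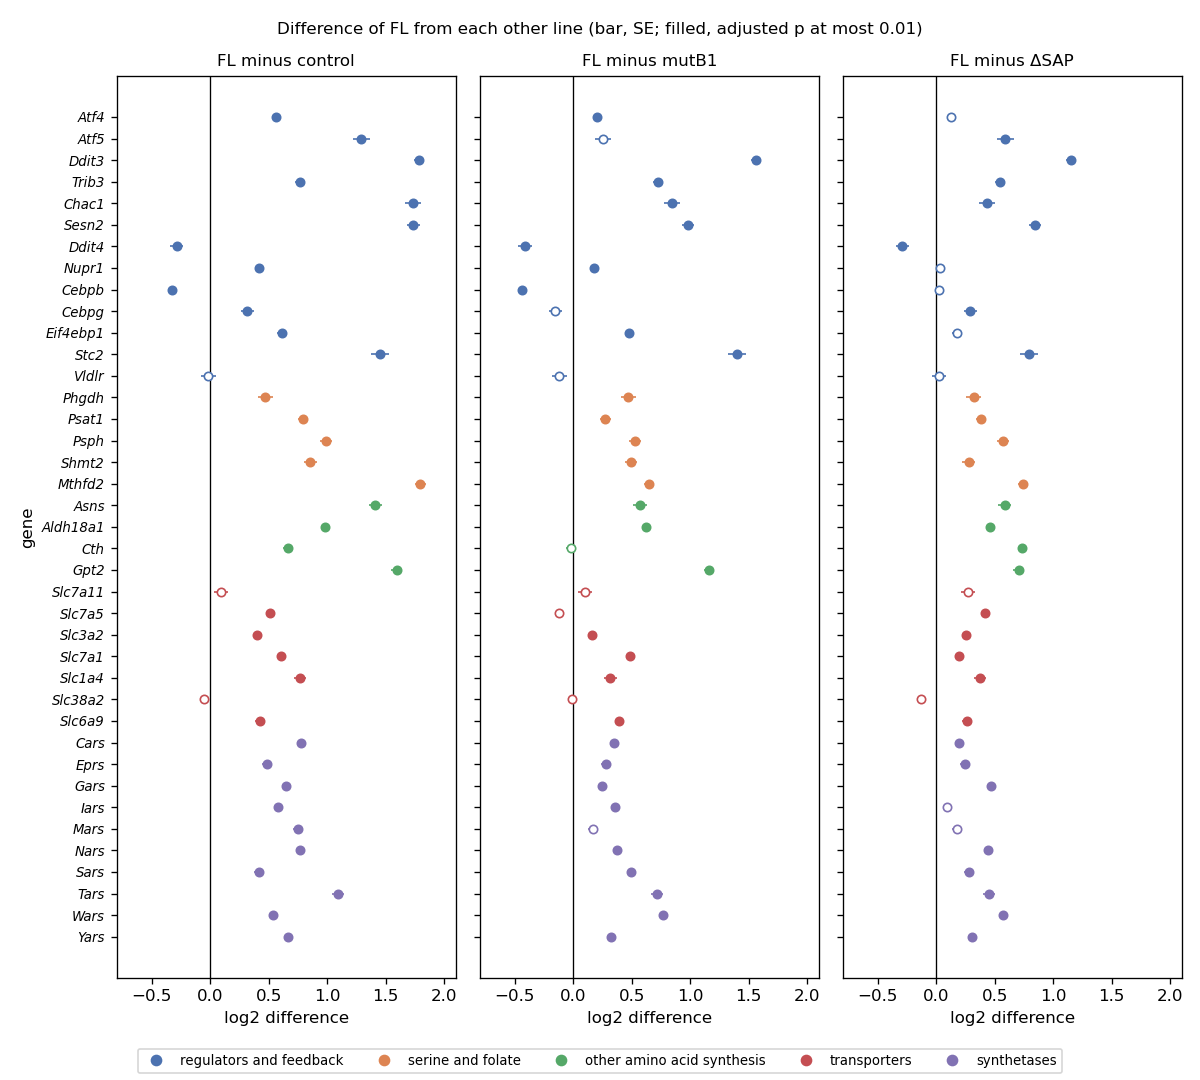
Log2 difference of FL from control, mutB1 and ΔSAP for each measured member, coloured by role; bars are the limma SE, and filled points have an adjusted p of at most 0.01. Most points lie right of 0 in all 3 panels, Ddit4 lies left of 0 in all 3, and the panels share the FL arrays.

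Put together by line, 25 members were called higher in FL than in each of the other lines, all 5 serine and folate enzymes and 8 of 10 synthetases among them. For 22 members, FL, mutB1 and ΔSAP were all called higher than control: 6 regulators, 4 serine and folate enzymes, 3 other amino acid enzymes, 1 transporter and 8 synthetases. A full gradation, with FL above both altered lines and both above control, held for 17 members: Ddit3, Chac1, Sesn2, Psat1, Psph, Shmt2, Mthfd2, Asns, Aldh18a1, Gpt2, Slc1a4, Cars, Eprs, Gars, Nars, Tars and Yars. Of the calls, 33 of 34 higher than control in FL held in every alternative analysis, as did 25 of 29 against mutB1 and 21 of 29 against ΔSAP. The gradation of Ddit3, Shmt2, Eprs, Gars and Cars rests on at least 1 call that did not. The share of all probe sets with each joint pattern was not counted, and the comparisons share arrays. The 25, 22 and 17 therefore describe the members only.

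The altered lines were set against each other to see where they differed. ΔSAP was higher than mutB1 for 13 members and lower for 6 (background 8.07% and 9.04%), and 20 were not called, with a median log2 difference of 0.08 (-0.029 over all probe sets tested). Among bright single-symbol probe sets 16.1% were higher and 19.9% lower, so the share of members that were lower was no larger than this background. None differed by 2-fold, where 1.64% of all probe sets did. The serine and folate enzymes held no call in either direction. The count of higher members depended on single arrays: it was 7 without mutB1 replicate 3 and 7 without ΔSAP replicate 3, and 6 in a fit of the arrays of those lines alone. Of the calls, 6 of the 13 higher and 4 of the 6 lower held in every alternative.

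The 4 lower calls that held were Cth (-0.76 ± 0.042, limma adjusted p = 5.64e-07), Slc7a5 (-0.54 ± 0.03, adjusted p = 5e-07), Cebpb (-0.46 ± 0.037, adjusted p = 9.03e-06) and Cebpg (-0.45 ± 0.055, adjusted p = 0.0002). Cebpg, another C/EBP partner of Atf4, had means of 9.26 ± 0.076 (control), 9.58 ± 0.079 (FL), 9.73 ± 0.064 (mutB1) and 9.28 ± 0.03 (ΔSAP). For Cth, Slc7a5 and Cebpg, ΔSAP lay near control while mutB1 and FL lay higher. The Cebpg difference of FL from ΔSAP (0.29 ± 0.055, adjusted p = 0.00404) ended as a call without any 1 of 5 arrays (up to 0.0172, without ΔSAP replicate 1).

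The 6 higher calls that held were Stc2 (0.61 ± 0.077, limma adjusted p = 0.000229), Gpt2 (0.45 ± 0.046), Ddit3 (0.41 ± 0.042, adjusted p = 4.66e-05), Chac1 (0.41 ± 0.067), Eif4ebp1 (0.30 ± 0.042) and Slc7a1 (0.30 ± 0.033, adjusted p = 9.44e-05). For Stc2, Eif4ebp1 and Slc7a1, ΔSAP was also called above control and mutB1 was not. Eif4ebp1 had means of 11.08 ± 0.031 (control), 11.69 ± 0.055 (FL), 11.21 ± 0.057 (mutB1) and 11.51 ± 0.017 (ΔSAP). Among the transporters, Slc7a1 and Slc7a5 therefore differed in opposite directions between the altered lines.

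**Figure D4:**
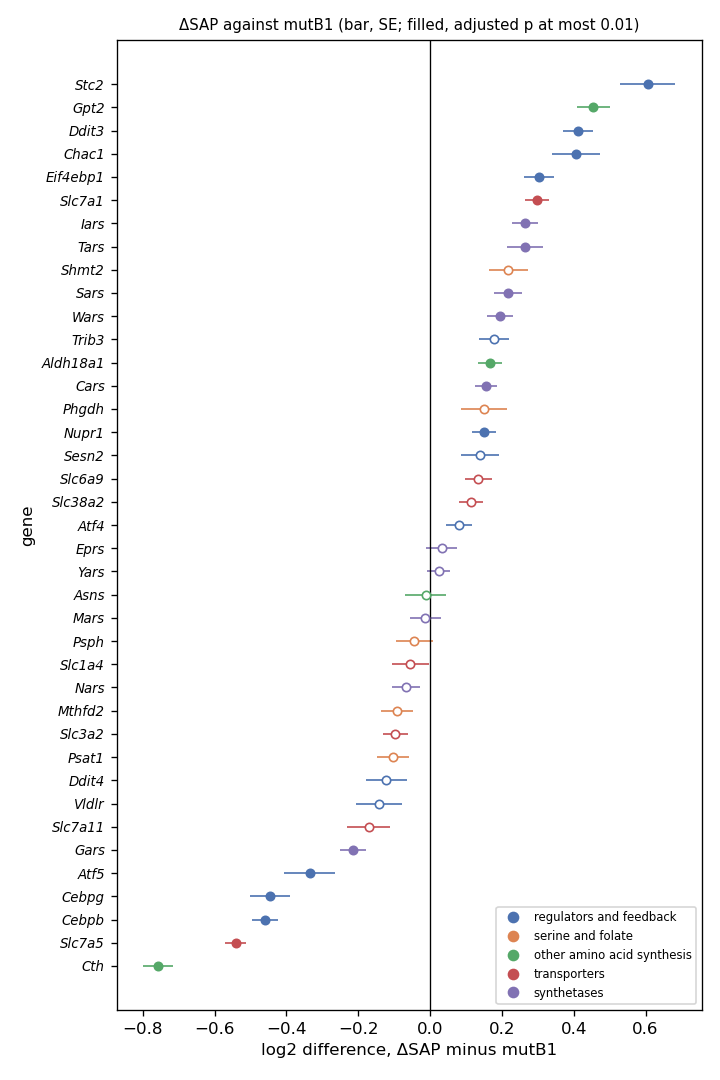
Log2 difference of ΔSAP minus mutB1 for each measured member in order of size, coloured by role; bars are the limma SE, and filled points have an adjusted p of at most 0.01. Cth, Slc7a5, Cebpb and Cebpg are the lowest and Stc2 is the highest.

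Other genes of the pathway were read from 6 lists that hold no members. These lists too were chosen with earlier results of these data known, so their shares are descriptions and not an independent test. Upstream, 3 of 7 eIF2 kinases and phosphatase genes were higher in FL than in control and 3 than in mutB1, 1 was higher than in ΔSAP, and none was lower. The single gene against ΔSAP is a share (14.3%) near the 15.1% of bright single-symbol probe sets, while the others (42.9% each) compare with 22.7% and 20.4%. Ppp1r15a (Gadd34), the phosphatase subunit that Atf4 induces to undo eIF2α phosphorylation, had means of 7.81 ± 0.016 (control), 9.10 ± 0.079 (FL), 7.85 ± 0.17 (mutB1) and 8.38 ± 0.052 (ΔSAP). Its RNA in FL was above mutB1 by 1.25 ± 0.075 (limma adjusted p = 9.42e-07) and above ΔSAP by 0.72 ± 0.075 (adjusted p = 0.000113). Eif2ak2 (Pkr), the interferon-induced kinase, was instead above control in all construct lines, by 1.15 in FL, 1.31 in mutB1 and 1.22 in ΔSAP. Eif2ak3 (Perk) had means of 8.91 ± 0.036 (control), 9.05 ± 0.07 (FL), 8.72 ± 0.048 (mutB1) and 9.21 ± 0.031 (ΔSAP), and FL stood above mutB1 by 0.32 ± 0.045 (adjusted p = 0.000355).

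Of 22 further amino acid response genes, 12 were higher and 6 lower in FL than in control, 12 and 4 than in mutB1, and 9 and 3 than in ΔSAP. The shares higher (54.5%, 54.5% and 40.9%) compare with 11%, 10.1% and 6.56% of all probe sets. Among bright single-symbol probe sets 22.7%, 20.4% and 15.1% were higher. The shares lower (27.3%, 18.2% and 13.6%) compare with 11.9%, 10.2% and 6.54% of all probe sets. The lower share among bright single-symbol probe sets is not given for these comparisons. For ΔSAP minus mutB1, where it is given, it was 19.9%, against 9.04% of all probe sets. Calls in this list ran both ways, but whether the lower share exceeds that of bright genes was not tested. Aldh1l2, a mitochondrial folate enzyme, had means of 6.57 ± 0.043 (control), 8.71 ± 0.063 (FL), 7.58 ± 0.099 (mutB1) and 8.13 ± 0.11 (ΔSAP), the same order of lines as Chac1. Its FL minus control difference of 2.14 ± 0.067 (limma adjusted p = 7.03e-09) was larger than that of any member. Atf3, a stress transcription factor downstream of Atf4, was higher in FL than in control by 1.25 ± 0.075, in mutB1 by 1.02 ± 0.075 and in ΔSAP by 0.62 ± 0.075. Sesn1, a p53- and FoxO-linked relative of Sesn2, was lower in FL than in mutB1 (-1.37 ± 0.071, adjusted p = 3.38e-07) and in control (-1.09 ± 0.071), the opposite of Sesn2. Rab32, a small GTPase of mitochondria and lysosome-related organelles, stood higher in FL than in mutB1 by 1.57 ± 0.071 (adjusted p = 1.23e-07) and lower in mutB1 than in control (-0.87 ± 0.071). Its mutB1 mean of 6.22 ± 0.076 was under the lowest array median, so these differences may be understated.

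Cytosolic synthetases outside the member list were mostly higher in FL than in control. Of 8 other cytosolic synthetases, 6 were higher in FL than in control, 4 than in mutB1 and 4 than in ΔSAP, and 1 was lower than in ΔSAP (shares higher 75%, 50% and 50%, against 22.7%, 20.4% and 15.1% of bright probe sets). Lars, the leucyl enzyme, was higher in FL than in control by 0.92 ± 0.048 (limma adjusted p = 2.82e-07) and than in mutB1 by 0.47 ± 0.048, Hars, the histidyl enzyme, than in control by 0.37 ± 0.04, Farsb, a phenylalanyl subunit, by 0.33 ± 0.034 and Rars, the arginyl enzyme, by 0.26 ± 0.042. Of the 3 scaffold genes of the multi-synthetase complex, Eef1e1 was higher in FL than in control by 0.54 ± 0.037 and Aimp2 by 0.40 ± 0.051, whereas Aimp1 did not pass there (-0.016). The scaffold share higher, 66.7%, compares with the 22.7% of bright probe sets.

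Mitochondrial synthetases are mostly encoded by separate genes, and their calls were few. Of 16, 3 were higher and 1 lower in FL than in control, 3 and 2 than in mutB1, and 3 and 0 than in ΔSAP. The share higher, 18.8% in each comparison, compares with 22.7%, 20.4% and 15.1% of bright probe sets and 11%, 10.1% and 6.56% of all. The shares lower, 6.25%, 12.5% and 0%, compare with 11.9%, 10.2% and 6.54% of all probe sets. These shares are near or below the background. Mars2 was higher in FL than in control by 0.61 ± 0.056 (limma adjusted p = 1.49e-05), Tars2 stood higher in FL than in mutB1 by 0.46 ± 0.042, and Vars2 was lower in FL than in control (-0.45 ± 0.042, adjusted p = 1.83e-05). The difference between the mitochondrial and cytosolic counts was not itself tested. None of the 14 mitochondrial synthetase windows held TGATGNAA, but at 4.51% of all genes a list this short may well hold none.

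Genes of the Atf6 and Xbp1 branches, which answer misfolded protein in the endoplasmic reticulum mainly through factors besides Atf4, were also higher in FL. Of 15, 14 were higher than in control, 14 than in mutB1 and 14 than in ΔSAP, and none was lower. Each share higher (93.3%) compares with 22.7%, 20.4% and 15.1% of bright single-symbol probe sets. The list is not free of the Atf4 element, since the Herpud1 window held TGATGCAA. Sdf2l1, an endoplasmic reticulum protein of the chaperone complex, was higher in FL than in control by 1.27 ± 0.054, in mutB1 by 1.06 ± 0.054 and in ΔSAP by 0.93 ± 0.054 (limma adjusted p = 3.02e-06). Hyou1, a chaperone of the Hsp70 family, was higher by 0.99, 0.68 and 0.65 in the same comparisons, and Creld2, a secreted stress protein, by 0.97, 0.87 and 0.72. Fewer of these 15 were called in the altered lines: 5 were higher and 2 lower in mutB1 than in control, and 10 higher and 2 lower in ΔSAP. The shares higher, 33.3% and 66.7%, compare with 15.1% and 16.3% of bright single-symbol probe sets. The shares lower, 13.3% each, compare with 7.89% and 8.96% of all probe sets. Bright genes are called more often, and their lower share is not given for these comparisons. Dnajb9, a cochaperone, was among those lower in mutB1 than in control (-0.48 ± 0.066, adjusted p = 0.000436).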

How the data were processed

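RNA of 4 stable 4T1 lines was hybridised to 12 single-colour Affymetrix arrays, 3 per line. The deposited values are log2 intensities that the authors calculated by RMA with the affy package of Bioconductor 2.4, per the series design text; the submitters' processing notes name R 2.10.0. No raw scanner files were used here, and the number of arrays limits the precision. Of 34760 probe sets, 21640 have 1 gene symbol in GEO's platform annotation, 1321 have several and 11799 have none, and 21553 of the first were matched to RefSeq (GRCm38.p6) by Entrez identifier.

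One limma 3.58.1 model in R 4.3.3 (lmFit and eBayes) was fitted to all probe sets and all 12 arrays, with 4 line means, and p-values were adjusted by Benjamini-Hochberg over the whole table. A difference was called at an adjusted p of at most 0.01 with a mean (log2) no lower than 4, the study's thresholds without its 2-fold minimum, which was counted separately. Differences are on the log2 scale with the moderated SE, and 95% intervals come from the same fit. A line mean under the lowest array median (6.35) is called low.

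The members and the other gene lists were chosen with earlier results of these data known. All members were accounted for, and values on every array were given for Atf4, Ddit3 and Asns and for the up to 4 members of each role with the widest range of line means among those called in the F test (Slc7a11 was added after its values were seen). In the other lists the named genes are up to 4 with the widest range. Replicate numbers showed little pairing of the arrays: of 18 same-numbered pairs, 2 had deviations correlated above 0.1 (range -0.231 to 0.184). Differently numbered pairs ran from -0.177 to 0.296. A pairing under other numbers was not tested, and the replicate block would not capture it. No scan batch is given in the labels. The script was tested on simulated data. Promoter sequences are RefSeq's. Alternatives tried were median centring, quantile normalization, the mean of a gene's probe sets, a minimum mean of 6 or none, limma's trend, the 2 lines alone, a replicate block, and leaving out each array.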

Additional observations from a re-analysis of the deposited data

Results flagged for a closer look

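The difference from control was not the same in mutB1 and ΔSAP for 19 members, by the limma test of the difference between these lines itself. ΔSAP minus mutB1 was positive for 13: Stc2 (0.61), Gpt2 (0.45), Ddit3 (0.41), Chac1 (0.41), Eif4ebp1 (0.30), Slc7a1 (0.30), Iars (0.27), Tars (0.26), Sars (0.22), Wars (0.20), Aldh18a1 (0.17), Cars (0.16) and Nupr1 (0.15). It was negative for 6: Cth (-0.76), Slc7a5 (-0.54), Cebpb (-0.46), Cebpg (-0.45), Atf5 (-0.34) and Gars (-0.22). These shares of the members, 33.3% and 15.4%, compare with 16.1% higher and 19.9% lower among bright single-symbol probe sets. The share of negative members was therefore no larger than this background. The limma adjusted p ran from 5e-07 (Slc7a5) to 0.00863 (Nupr1), and the SE from 0.03 to 0.077. Calls that held in every alternative were those of Stc2, Gpt2, Ddit3, Chac1, Eif4ebp1, Slc7a1, Cebpb, Cebpg, Cth and Slc7a5. Over all alternatives the highest adjusted p was 0.0679 for Nupr1, 0.0453 for Cars and 0.0408 for Aldh18a1, each with the arrays of the 2 lines alone. With 1 array left out it was 0.0381 for Nupr1, without mutB1 replicate 3, and 0.0256 for Atf5, without ΔSAP replicate 2. Epithelial and fibroblast marker sums and the Mkl1 level also differ between these lines, and their part in these differences was not tested.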

How the results depend on the processing

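Of 171 called member differences, 136 were called under every alternative and none changed sign. Leaving out 1 array gave, for FL against mutB1, 27 to 28 higher members and 2 lower ones, against ΔSAP 24 to 27 and 0 to 1, and against control 34 and 1 to 2. It gave 24 to 26 higher and 1 lower for mutB1 against control, 24 to 25 higher and 1 to 2 lower for ΔSAP against control, 7 to 12 higher and 5 to 6 lower for ΔSAP against mutB1, and 36 to 37 in the F test. The lower count of FL against ΔSAP (1, Ddit4) became 2 with limma's trend and 0 with the arrays of the 2 lines alone. With the 2 lines alone the lower count became 1 for FL against control and 0 for mutB1 against control, and the higher count of ΔSAP against mutB1 fell to 6; median centring gave 8 there. With the replicate number as a block the counts were 28 and 2, 25 and 1, 34 and 2, 25 and 1, 26 and 1, and 10 and 5 in the order above, and 36 in the F test.

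Sign changes were seen only in differences that were not called in the reported fit. Uncalled differences were followed through the alternatives only where FL was compared with another line, and 7 of these were called in some alternative. Cth in FL minus mutB1 became 0.0051 after quantile normalization and ran from -0.054 to 0.0043 as arrays were left out (highest without mutB1 replicate 1). Nupr1 in FL minus ΔSAP became -0.0039 after median centring. Cebpb in FL minus ΔSAP became -0.011 after median centring and ran from -9.4e-05 (without FL replicate 3) to 0.053. Vldlr in FL minus ΔSAP became -0.012 after median centring, -0.011 after quantile normalization and ran from -0.033 (without ΔSAP replicate 3) to 0.053, and in FL minus control it ran from -0.078 to 0.028 (without control replicate 1). The cause of these changes was not tested. Vldlr is too dim for a difference to be measured.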

Other observations

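FL minus mutB1 and ΔSAP minus control share no arrays, and their log2 differences over the 39 members correlated at r = 0.664, with the same sign for 33. Over 9473 bright single-symbol probe sets r was 0.498, and 65% had the same sign. For FL minus ΔSAP and mutB1 minus control r was 0.402 with 35 of one sign (0.304 and 58.2% over bright probe sets), and for FL minus control and ΔSAP minus mutB1 it was 0.413 with 24 (0.251 and 58.4%). These are descriptions across genes, which are not independent replicates.

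Outside the members, TGATGNAA was in the promoter window of 5 of 17 further amino acid response genes and of 1 of 12 genes of the Atf6 and Xbp1 branches. It was in none of the 7 windows of eIF2 kinases and phosphatases, the 5 of other cytosolic synthetases or the 3 of scaffold genes. Since 4.51% of all genes with a window held it, lists this short would mostly hold none, and these zeros say little.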
